A study of Auxenochlorella pyrenoidosa with 12 samples.

Results

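The comparison of cultures given potassium peroxymonosulfate at 0.2 EC50 with unexposed cultures is described here contig by contig. A contig is a transcript sequence assembled from reads, and EC50 is the concentration with a median effect. Its members are all contigs whose FPKM averaged 1 or more across 3 libraries at 0.2 EC50 and 3 control libraries, and 16525 of the 29140 contigs in the deposited table met that rule. FPKM, fragments scaled to contig length and to the library total, is a level per length, so levels of different contigs can be set side by side. Together the members accounted for 98.3% to 99.1% of each library's total FPKM in these 6 libraries.

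The organism is Auxenochlorella pyrenoidosa, also called Chlorella pyrenoidosa, a unicellular green alga with 1 large chloroplast, and RNA came from whole cells. The exposed cultures received 3.40 mg/L of peroxymonosulfate, and controls received 0 mg/L. Groups at 1.70 mg/L (0.1 EC50) and 8.49 mg/L (0.5 EC50) also had 3 libraries each. They enter below as reference levels, and their spread also enters the limma fit behind each SE, adjusted p and call. The study exposed cultures for 12 days, but the labels do not say on which of them RNA was sampled. The labels do not say whether replicate libraries were separate cultures. P-values therefore reflect the spread between libraries only, which may be technical.

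Peroxymonosulfate is a strong oxidant used to disinfect and treat water, and when activated it yields sulfate and hydroxyl radicals. Such oxidants can damage membranes, proteins, pigments and DNA. In green algae, oxidative stress is met by enzymes such as superoxide dismutase, catalase and ascorbate peroxidase, by glutathione and by carotenoids. The deposited table does not pair contigs with gene names, so none of these pathways could be assigned to a contig, the labelled species could not be checked against marker genes, and no role is given to any contig below.

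Clustering on low values set control replicate 2 and 0.2 EC50 replicate 2 apart from the other 4 libraries of this comparison. It used the share of ratios of low values between 2 libraries that fell on 1 step, with the number of sets fixed at 3. The largest set held 8 of the series' 12 libraries. Control replicate 2 was alone, and 0.2 EC50 replicate 2 was grouped with 0.1 EC50 replicates 2 and 3. The fullest step held 1.2% to 3.79% of low-value contigs between libraries of the largest set. Against that set it held at most 1.4% for control replicate 2 and 1.27% for 0.2 EC50 replicate 2, so the shares overlap. The series' 4 libraries outside the largest set are said below to share the steps weakly or to have other low-value steps. Over the members, log2 levels had correlations of 0.946 to 0.95 between libraries at 0.2 EC50, 0.879 to 0.94 between controls and 0.87 to 0.941 between the groups, which does not set 0.2 EC50 replicate 2 apart. Counts of changed contigs are also given without control replicate 2 and 0.2 EC50 replicate 2.

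Control replicate 2 also carried contigs that the other libraries nearly lacked. Of the 16525 members, 310 had over 90% of their FPKM, summed over the 6 libraries, in 1 library, and for 293 of them that library was control replicate 2. These 293 contigs summed to 12770 FPKM there, 2.4% of that library, with a median of 8.96 and a highest value of 4130 FPKM. Their summed level was 0.165 FPKM in control replicate 1, 19.9 FPKM in control replicate 3 and 0.15, 1.03 and 1.58 FPKM in the libraries at 0.2 EC50. Their median difference was -1.11 on the log2(FPKM + 1) scale, with the group mean carried by 1 control, and 0 of the 293 were called in limma's test. They made up 232 of the 686 members with a difference of -1 or below. What these contigs are was not tested.

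Across all members, 1828 contigs differed between 0.2 EC50 and control, with 980 higher and 848 lower in the exposed cultures. These are 11.1% of the 16525 tested, 5.93% higher and 5.13% lower, with called meaning that limma's p, adjusted by the Benjamini-Hochberg method, was under 0.05. An unadjusted p under 0.05 was found for 4058. The values of the 2 groups did not overlap for 5027 contigs (30.4%), 2527 higher (15.3%) and 2500 lower (15.1%), and all 1828 called contigs were among these. Without control replicate 2 and 0.2 EC50 replicate 2 together, 725 contigs were called, 349 higher and 376 lower. That fit has fewer libraries in both groups, and the part of this in the drop was not tested. Of the contigs called with all libraries, 308 kept a higher call and 359 a lower call in that fit. Single libraries also moved the counts, and the total fell to 980 without 0.2 EC50 replicate 1, to 1164 without 0.2 EC50 replicate 2 and to 992 without control replicate 3. The higher calls numbered 613 without control replicate 2, and the lower calls 562 without control replicate 1.

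Most of the called differences were small on the scale used. The called higher contigs had a median difference of 0.66 on the log2(FPKM + 1) scale, and the called lower contigs one of -0.80. Among the higher calls 84.9% were under 1 on that scale, and among the lower calls 67.5% were. A difference of 1 is 2-fold in FPKM + 1, and more than that in FPKM, most of all for low contigs. Counts of contigs at least 2-fold higher or lower refer to this scale. Called contigs with an estimated difference of at least 2-fold numbered 148 higher (0.896% of those tested) and 276 lower (1.67%). The call itself is against no difference, and a test for a change beyond 2-fold called 0 higher contigs and 1 lower. The count of 148 became 96 without 0.2 EC50 replicate 1, and 93 without control replicate 2 and 0.2 EC50 replicate 2 together. With a pseudocount of 0.1 the counts were 245 of 971 higher calls and 387 of 806 lower calls. With a minimum mean of 5 FPKM the counts were 88 higher and 133 lower. Without the 4 libraries of the series that shared the low-value steps weakly they were 79 and 145. Over all members the median was -0.03, and the 5th and 95th percentiles were -0.94 and 0.72. Single exposed libraries had medians of 0.02, -0.14 and 0.04 against the control mean (SD 0.1, n = 3). FPKM is scaled to the library total, so these medians do not bear on a change in total RNA per cell.

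**Figure D1:**
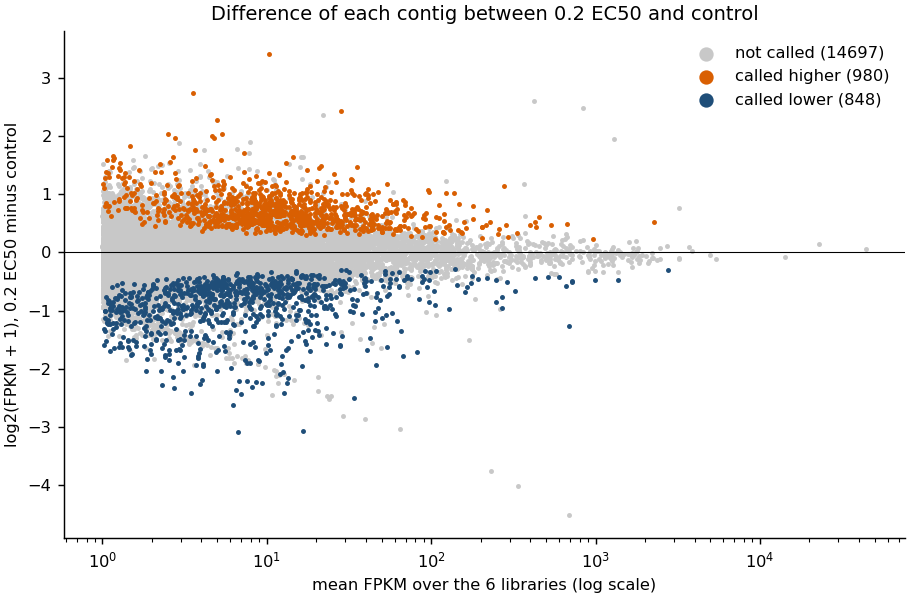
Difference in log2(FPKM + 1) between 0.2 EC50 and control (y axis) against the mean FPKM over the 6 libraries (x axis, log scale), with 1 point per contig. The 980 contigs called higher (orange) and 848 called lower (blue) lie mostly within 1 of the zero line, and grey points far below it include contigs found almost solely in control replicate 2.

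The contigs called higher carried 4.41%, 4.02% and 4.09% of summed FPKM in control replicates 1, 2 and 3, and 6.8%, 6.24% and 6.28% in the exposed replicates. The contigs called lower carried 5.37%, 5% and 5.31% in the controls and 3.3%, 3.29% and 3.36% in the exposed replicates. The sets were chosen by these values, so their lying apart is a description. In the contigs called higher, the median log2 difference from the control mean was 0.68, 0.66 and 0.63 in exposed replicates 1, 2 and 3. In the contigs called lower it was -0.82, -0.87 and -0.69.

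Contigs were eligible for description if at least 2-fold higher, without overlap between the groups, and called under 3 other scalings. They also had to stay called without control replicate 2 and 0.2 EC50 replicate 2, and the 2 with the highest level are described. The lack of overlap in the 4 named contigs is thus part of the rule. As the rule uses the values at 0.2 EC50, it also favours differences of that dose from the other doses. TRINITY_DN855_c0_g1_i3_4 stood at 176, 151 and 189 FPKM in control replicates 1, 2 and 3. At 0.2 EC50 it stood at 482, 358 and 316 FPKM. All exposed values lay above all control values, and the exposed replicates spread over a wider range than the controls. The means were 172 ± 19.7 and 385 ± 86.6 FPKM (SD, n = 3), 2.24-fold apart, with a log2 difference of 1.14 ± 0.181 (SE, limma's adjusted p = 0.00361). The call ended without all 4 libraries of the series that shared the steps of low values weakly (log2 difference 1.09, adjusted p = 0.0686). The same contig averaged 252 ± 51.9 FPKM at 0.1 EC50 and 501 ± 60.8 FPKM at 0.5 EC50 (SD, n = 3). Its level at 0.2 EC50 lay between these, and limma's test called neither difference (0.2 minus 0.1 EC50: log2 0.61, adjusted p = 0.214, and 0.2 minus 0.5 EC50: log2 -0.39, adjusted p = 0.226).

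TRINITY_DN14549_c0_g1_i1_3 had control values of 89.2, 85.1 and 96.3 FPKM, and exposed values of 174, 216 and 164 FPKM. The groups did not overlap, and the lowest exposed library was well above the highest control. The mean rose from 90.2 ± 5.71 to 185 ± 27.7 FPKM (SD, n = 3), 2.05-fold, with a log2 difference of 1.02 ± 0.136 (SE, limma's adjusted p = 0.00156). On average it reached 172 ± 22.8 FPKM at 0.1 EC50 and 145 ± 18.1 FPKM at 0.5 EC50 (SD, n = 3), both called higher than control (adjusted p = 0.00283 and 0.0168). The differences of 0.2 EC50 from these doses were 0.10 and 0.34 on the log2 scale and were not called (adjusted p = 0.779 and 0.163).

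Among the contigs at least 2-fold lower, the one with the highest level under the same rule was TRINITY_DN4062_c0_g1_i1_3. Control replicates 1, 2 and 3 had 955, 1040 and 921 FPKM of it, and the exposed replicates had 360, 408 and 453 FPKM. Every exposed value was less than the lowest control by a wide margin. The mean fell from 972 ± 61.3 to 407 ± 46.4 FPKM (SD, n = 3), 2.39-fold, with a log2 difference of -1.26 ± 0.13 (SE, limma's adjusted p = 0.000636). At 0.1 EC50 it stood at 402 ± 46.1 FPKM, and at 0.5 EC50 at 1007 ± 149 FPKM (SD, n = 3). The level at 0.5 EC50 was not called different from control (log2 difference 0.04, adjusted p = 0.865). In direct comparison 0.2 EC50 was lower than 0.5 EC50 by a log2 difference of -1.30 ± 0.13 (adjusted p = 0.000938), and it differed from 0.1 EC50 by 0.02 (adjusted p = 0.981).

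TRINITY_DN6070_c0_g1_i2_4 showed a similar order of doses at a lower level. The controls gave 129, 108 and 142 FPKM and the exposed libraries 32.3, 35.6 and 45.8 FPKM, again without overlap. The mean fell from 126 ± 17.5 to 37.9 ± 7.04 FPKM (SD, n = 3), 3.33-fold, with a log2 difference of -1.72 ± 0.145 (SE, limma's adjusted p = 0.000356). At 0.1 EC50 it averaged 37.7 ± 4.71 FPKM and at 0.5 EC50 98.1 ± 2.95 FPKM (SD, n = 3). It was lower at 0.2 than at 0.5 EC50 by a log2 difference of -1.37 ± 0.145 (adjusted p = 0.000938), while 0.5 EC50 did not pass the test against control (log2 difference -0.35, adjusted p = 0.152). The 4 contigs ranked 259, 437, 116 and 737 by level among the 16525 members, in the order described.

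**Figure D2:**
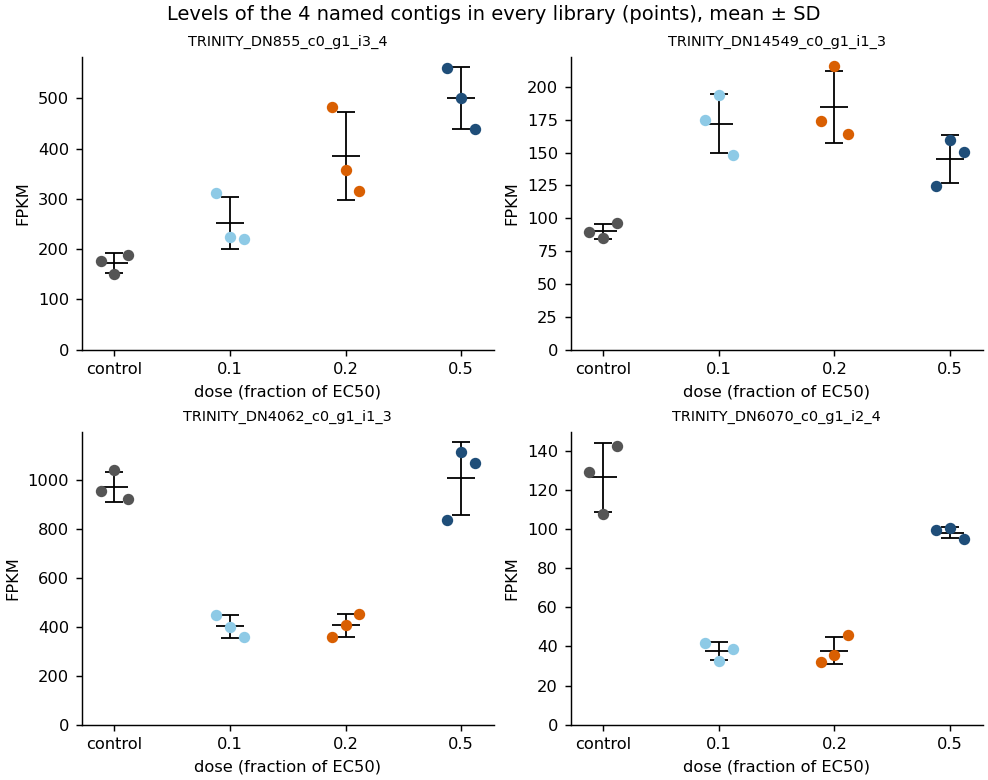
FPKM of the 4 named contigs in each library (points) by dose as a fraction of EC50, with mean ± SD of 3 libraries in black. The upper contigs are higher at 0.2 EC50 than in every control, and the lower contigs are lower at 0.1 and 0.2 EC50 than in every control, with means at 0.5 EC50 of 1007 and 98.1 FPKM.

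For reference, the same fit called 9.03% of these contigs at 0.5 EC50 against control, 10.2% at 0.1 EC50 against control, 6.22% between 0.2 and 0.5 EC50 and 0% between 0.2 and 0.1 EC50. The comparisons with control share the 3 control libraries, so the following medians are values side by side and no test of likeness. The 148 contigs at least 2-fold higher at 0.2 EC50 had a median log2 difference from control of 0.63 at 0.1 EC50, 1.17 at 0.2 EC50 and 0.84 at 0.5 EC50. The 276 contigs at least 2-fold lower had medians of -1.38 at 0.1 EC50, -1.36 at 0.2 EC50 and -0.76 at 0.5 EC50. Over all members the medians were -0.12, -0.03 and 0.11 in the same order of doses. The sets were chosen at 0.2 EC50, which favours a large value there.

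The share of called contigs differed by level. Of the 5179 members with a mean under 2 FPKM, 3.67% were called, 64 higher and 126 lower. Of the 2104 members at 10 to 20 FPKM, 19.2% were called, 247 higher and 156 lower, and of the 1958 members at 20 to 100 FPKM 18.2% were, 239 higher and 117 lower. The median standard error was 0.324 on the log2 scale under 2 FPKM, 0.133 at 20 to 100 FPKM and 0.126 at 100 FPKM or more. Smaller differences could thus be called at higher levels, yet at 100 FPKM or more 11.8% were called. Why the share differed by level was not tested. Higher calls outnumbered lower calls in the classes from 5 to 100 FPKM, also under the 4 other scalings. The 603 members at 100 FPKM or more gave 43 higher and 28 lower calls, and 32 and 21 after median-of-ratios scaling. That direction turned under the other 3 scalings, to 36 and 37 with an equal total, 38 and 40 with quantile normalization and 27 and 33 with scaling within each last number of the contig name. It was also 25 and 28 without 0.2 EC50 replicate 2, and 18 and 18 without 0.2 EC50 replicate 1. Under 2 FPKM the lower calls were more, except with quantile normalization, which gave 111 higher and 107 lower. Without control replicate 2 and 0.2 EC50 replicate 2 the classes at 10 to 20 and 20 to 100 FPKM gave 87 and 109 higher and 74 and 64 lower calls, and the class at 5 to 10 FPKM gave 60 higher and 73 lower. Without control replicate 2 alone that class gave 129 higher and 133 lower. Leaving out 1 library at a time gave 18 to 76 higher and 46 to 148 lower calls under 2 FPKM, 123 to 285 and 93 to 201 at 5 to 10 FPKM, and 18 to 44 and 17 to 43 at 100 FPKM or more. The lowest counts of higher calls came without 0.2 EC50 replicate 1 in these classes, and those of lower calls without control replicate 3.

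**Figure D3:**
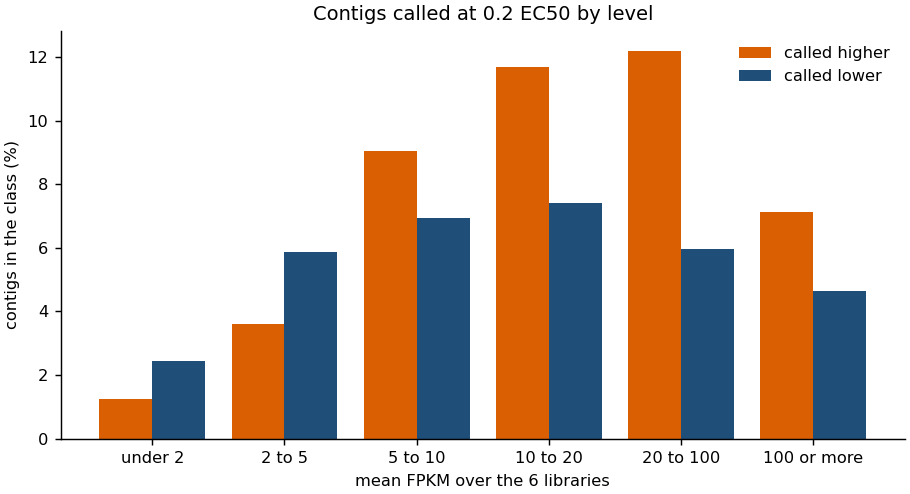
Share of contigs called higher (orange) and lower (blue) at 0.2 EC50, in percent of the contigs of each class of mean FPKM over the 6 libraries. Calls were fewest under 2 FPKM (3.67% in all) and most frequent at 10 to 20 FPKM (19.2%).

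Few of the most abundant contigs were called. Among the 100 members with the highest level, from 823 to 44408 FPKM, 2 were called higher and 3 lower, 5% against 11.1% of all members. The called differences lay between -0.48 and 0.53 on the log2 scale. In this set 96 contigs differed from control by less than 0.5 on that scale, called or not. The other 4 were the called contig at 0.53 and 3 uncalled ones at 0.76, 1.95 and 2.48, whose values overlapped between the groups.

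Presence and absence gave few contigs. Of the members, 15014 (90.9%) were above 0 in all 6 libraries. Only 6 were listed at 0 in all 3 controls, and 5 of these were above 0 in all 3 exposed libraries. At 0.2 EC50, 300 were listed at 0 in all 3 libraries, but 279 of these belong to the contigs of control replicate 2 described above, and 8 were above 0 in all 3 controls. A value listed at 0 can be a failed estimate, and the depth of the libraries is unknown, so no limit can be put on these levels.

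Contig names end in 1, 2, 3 or 4, a number that the labels do not explain, and the direction of the calls went with it. Names ending in 4 gave 448 higher and 167 lower calls among 4872 members, and names ending in 2 gave 216 higher and 86 lower among 2861. Names ending in 3 gave 132 higher and 402 lower calls among 5167 members. All 293 contigs found almost only in control replicate 2 end in 3, and 0 of them were called. They enter the median difference of number 3 and its shares at 0 given below. Of the 300 members at 0 in all 3 exposed libraries, 298 end in 3. Names ending in 1 gave 184 higher and 193 lower among 3625, with 181 and 172 under an equal total and 197 and 191 under quantile normalization. Leaving out 1 library at a time gave 228 to 538 higher and 78 to 179 lower calls for number 4, 101 to 245 and 38 to 98 for number 2, and 76 to 152 and 195 to 431 for number 3. The lowest higher counts came without 0.2 EC50 replicate 1 and the lowest lower counts without control replicate 3. In each of these fits numbers 4 and 2 kept more higher calls and number 3 more lower calls. The median log2 difference of the members was 0.10 for names ending in 4, 0.07 for 2, -0.20 for 3 and -0.07 for 1. Of the 276 contigs at least 2-fold lower, 178 ended in 3, and of the 148 at least 2-fold higher, 86 ended in 4.

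The number also went with the libraries in which contigs were listed at 0. Over the whole table, 1.43%, 4.9% and 5.41% of contigs ending in 4 were listed at 0 in 0.2 EC50 replicates 1, 2 and 3, and 7.64%, 8.85% and 7.18% in control replicates 1, 2 and 3. For contigs ending in 3 it was 14.9%, 25% and 18.1% in the exposed replicates and 17.8%, 8.18% and 8.69% in the controls. For contigs ending in 2, 0.2 EC50 replicate 3 stood out with 1.42%, and for those ending in 1, control replicate 1 had the lowest share of these 6 libraries with 6.5%. Each share was divided by that of all contigs of the same library, and the 3 libraries with the lowest ratio were taken for each number. All 12 libraries then fell under exactly 1 number. Number 4 had 0.2 EC50 replicates 1 and 2 with 0.5 EC50 replicate 3 (ratios 0.179, 0.324 and 0.102). Number 3 had control replicates 2 and 3 with 0.5 EC50 replicate 2 (ratios 0.891, 1.13 and 1.37). For number 3 only the ratio of control replicate 2 was thus under 1. Number 2 had 0.2 EC50 replicate 3 with 0.1 EC50 replicates 1 and 3, and number 1 had control replicate 1 with 0.5 EC50 replicate 1 and 0.1 EC50 replicate 2. Numbers 2 and 4, with more higher calls, had libraries at 0.2 EC50 among their lowest 3, and number 3, with more lower calls, had 2 controls there. Number 1, with 1 control there, had nearly as many higher as lower calls. Whether the numbers mark separate assemblies, in which 1 transcript could be listed as more than 1 contig, was not tested, so a count of contigs may not be a count of transcripts.

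**Figure D4:**
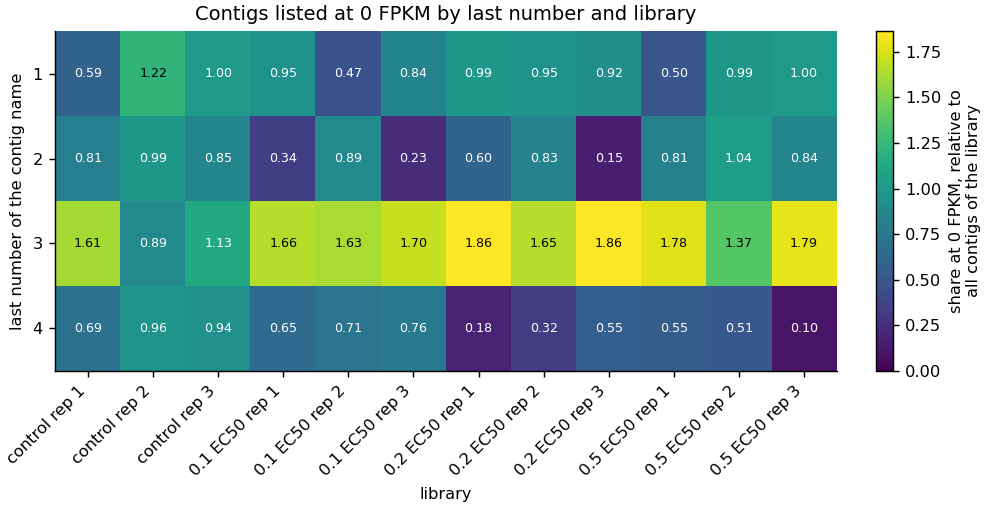
Share of contigs listed at 0 FPKM for each last number of the contig name (rows) in each library (columns), divided by the share for all contigs of that library. Low ratios for number 4 lie at 0.2 EC50 replicates 1 and 2 and 0.5 EC50 replicate 3. The lowest ratios for number 3 lie at control replicates 2 and 3 (0.891 and 1.13).

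Single pairs of libraries showed how the shift of contigs ending in 3 was spread. Against control replicate 1, their median log2 difference was 0, -0.20 and 0 in exposed replicates 1, 2 and 3. Against control replicate 3 it was -0.25, -0.45 and -0.19, and against control replicate 2 it was -0.06, -0.25 and -0.01. For contigs ending in 4 it was above 0 in all 9 pairs, from 0.01 to 0.18. When libraries were scaled by the median of ratios within each number, names ending in 3 gave 207 higher and 281 lower calls and names ending in 4 gave 300 and 275. Numbers 2 and 1 gave 163 and 125, and 206 and 163. This scaling removes any shift shared by the contigs of a number in a library, whatever its source, so evener counts can follow from it by construction. In that fit 1720 contigs were called, 876 higher and 844 lower, and 768 of the higher and 690 of the lower calls made without this scaling were kept. Without control replicate 2 and 0.2 EC50 replicate 2, names ending in 3 gave 48 higher and 188 lower calls and names ending in 4 gave 158 and 65. The part of the last number, and of the libraries that go with it, in the calls was not tested.

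**Figure D5:**
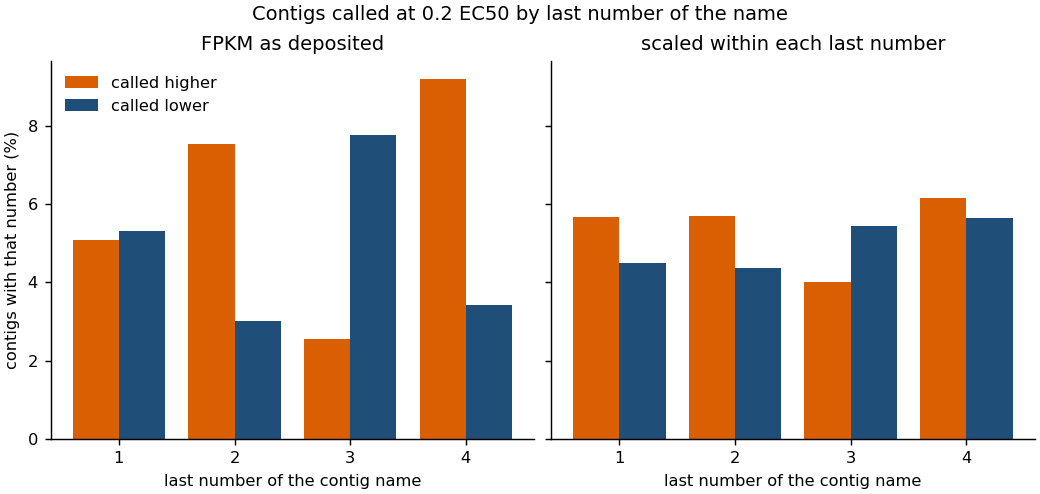
Share of contigs called higher (orange) and lower (blue) at 0.2 EC50, in percent of the members with each last number, with FPKM as deposited (left) and after median-of-ratios scaling within each number (right). As deposited, 9.2% of contigs ending in 4 were called higher and 3.43% lower, against 2.55% and 7.78% of those ending in 3. The scaling on the right removes any shift shared within a number.

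Contigs reaching 1 FPKM did not differ in number beyond the spread between libraries. They numbered 17280, 14015 and 17446 at 0.2 EC50 and 16118, 16569 and 18261 in the controls, with 0.2 EC50 replicate 2 the lowest. The means were 16247 ± 1935 and 16983 ± 1130 (SD, n = 3, two-sided exact permutation test over libraries, p = 0.7, where 3 against 3 can give no less than 0.1). Without 0.2 EC50 replicate 2 the exposed mean lay above the control mean by 380 contigs. Summed FPKM was 519052 ± 22079 at 0.2 EC50 and 524225 ± 14589 in the controls (SD, n = 3, the same exact test, p = 0.9). As FPKM is scaled to the library total, this sum is largely set by the scaling and does not bear on total expression.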

How the data were processed

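Per the labels' protocols, total RNA was made into TruSeq libraries. The authors deposited FPKM values for 29140 contigs in 12 libraries, a unit known from the table's name. Contig names have the form used by the Trinity assembler. No source used here names the aligner, abundance estimator or filters. Library depth is unknown, so no counting interval is given.

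Groups follow the dose in each sample title. log2(FPKM + 1) of the 16525 members was fitted in limma 3.58.1 (R 4.3.3) with a mean for each of 4 groups of 3 libraries (8 residual degrees of freedom) and a trend in the prior variance. P-values were two-sided and adjusted over all members (Benjamini-Hochberg), and called means an adjusted p under 0.05. This scale understates changes of low contigs. The members, rules and alternatives were chosen with earlier results of these data known.

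Named contigs, at most 2 in each direction, had to be called with a log2 difference of at least 1 and without overlap. They also had to keep the call after median-of-ratios, equal-total and quantile scaling and without control replicate 2 and 0.2 EC50 replicate 2 together. Of 77 such higher and 180 such lower contigs, those with the highest mean FPKM over the 6 libraries were taken.

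Steps were sought in values of 0.01 to 1 FPKM, as the fullest bin of 0.01 among log2 ratios within 0.5 of equality, and libraries were clustered on that share into 3 sets. Alternatives added after seeing the data were scaling within each last number of the name and leaving out contigs with over 90% of their FPKM in 1 library. Figures used matplotlib 3.10.9 in Python 3.11.15, and clustering SciPy 1.17.1.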

Additional observations from a re-analysis of the deposited data

Results flagged for a closer look

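TRINITY_DN4062_c0_g1_i1_3 and TRINITY_DN6070_c0_g1_i2_4 are listed here because their levels at 0.2 EC50 differed from those at 0.5 EC50 in a direct test, with log2 differences of -1.30 and -1.37 (limma, adjusted p = 0.000938 for both). All 3 libraries at 0.2 EC50 were below all 3 at 0.5 EC50 for both contigs. Both were chosen for low values at 0.2 EC50, which the direct test uses again, and this favours a difference. The direct test called 31.9% of the 276 contigs at least 2-fold lower, against 6.22% of all members.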

How the results depend on the processing

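For all, higher and lower contigs (1828, 980 and 848), the batch term for low-value steps gave 1310, 705 and 605. That term leaves control replicate 2, alone in its set, no weight in the comparison. The counts were within 1.5 times there and under a pseudocount of 0.1, all filters tried, 4 scalings, no prior trend and library weights. They were so too without contigs found in 1 library (1863, 996 and 867). They were 725, 349 and 376 without both libraries with other low-value steps, and 502, 276 and 226 without all 4 such libraries of the series. In the latter fit the lone remaining library at 0.1 EC50 is taken to vary as the other groups do. A fit of the 6 libraries alone gave 1294 contigs, 743 higher and 551 lower, with fewer residual degrees of freedom. Testing for a change beyond 2-fold called 1 contig, lower, and 0 higher, and ended the call of all 4 named contigs. Leaving out 1 library gave 980 to 2047 contigs in all, 511 to 1134 higher and 408 to 913 lower, and put the difference in contigs at 1 FPKM or more between -1335 and 380, the latter without 0.2 EC50 replicate 2. Causes were not tested.

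With the replicate block 2409 contigs were called (1218 higher, 1191 lower). Same-numbered libraries of these groups deviated together with correlations of 0.0131, 0.239 and -0.223. These few values cannot settle whether such libraries share more than a number. The main fit has no block because the labels do not say what a replicate number shares. The 4 named contigs kept their direction in all 116 values under alternatives and their call in 111 of these. The rule that chose them required the call under 3 of the scalings and without control replicate 2 and 0.2 EC50 replicate 2 together. Filters, the prior trend, the replicate block and leaving out libraries at other doses leave the log2 difference itself unchanged. The tally thus overstates how far these contigs were put to the test. Unknown depth limits what can be said of contigs near 1 FPKM.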

Other observations

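The same name with different last numbers did not mark contigs of like level. Of 22000 distinct names without the last number, 5722 came with more than 1 number. For each pair of numbers, 975 to 2012 shared names had correlations of 0.153 to 0.212 between their log2 mean levels over the 6 libraries, a description across contigs. No member shared its Trinity gene and last number with another.

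Among the 100 most abundant members, 3 uncalled contigs differed between group means by over 0.5 on the log2 scale, with overlapping values. The first stood at 3144, 5243 and 3358 FPKM in exposed replicates 1, 2 and 3 and at 2937, 1079 and 3609 FPKM in the controls. The second stood at 250, 2234 and 1442 FPKM in the exposed libraries and at 15, 3562 and 242 FPKM in the controls. The third stood at 208, 722 and 2745 FPKM and at 6, 1036 and 312 FPKM. Control replicate 1 was the lowest of the 6 libraries for the last 2 of these contigs, and control replicate 2 for the first.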
